A study of Mus musculus with 12 samples.

Results

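The genes described here encode the proteasome, the barrel-shaped protease that degrades ubiquitin-tagged proteins, together with its regulatory caps and the immunoproteasome. They were taken by symbol: rows of the first deposited gene table whose name begins with Psm, a letter from a to e and a digit, at 10 or more rescaled counts in at least 3 of 12 libraries. Of 44 matching symbols 43 passed, among 10868 rows that passed the same filter and 23361 rows in the table. Psmb8, Psmb9, Psmb10, Psme1 and Psme2 were set against the other 38. The row that failed was Psma8, an alpha subunit of spermatogenic cells, with at most 3 rescaled counts in any library. The row just inside was Psmb11, the catalytic subunit of the thymic cortex, which reached 10, 28, 12 and 10 rescaled counts in the 4 libraries where it met the minimum. One symbol that fits the pattern is no subunit: Psmc3ip encodes a factor of meiotic recombination, and it was kept in all counts because the rule takes it in.

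RNA came from mouse regulatory T cells (Tregs), which depend on Foxp3 and hold other immune cells in check, in a model of autoimmune diabetes. The 4 groups of 3 libraries each were Lag3-deficient islet Tregs, Wt islet Tregs, Lag3-deficient NDL Tregs and Wt NDL Tregs, where NDL stands for non-draining lymph nodes and Lag3 is an inhibitory receptor that binds MHC class II. The labels give the genotype only as Lag3 or Wt. Sources used here name no allele, Cre driver, strain, age or sorting gate, and call the RNA cytoplasmic in one field and total in another. Nothing in the labels says that replicates came from separate animals, so p-values measure the spread between these libraries, which may be technical. In bulk samples, fewer cells of a type and less RNA per cell cannot be told apart.

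Each proteasome core is a stack of rings, with alpha subunits (Psma genes) at the ends and beta subunits (Psmb genes), some of them catalytic, in the middle. The 19S cap, made of ATPases (Psmc genes) and non-ATPase subunits (Psmd genes), recognises ubiquitin chains and unfolds the substrate. In cells of the immune system, and in other cells after interferon gamma, the catalytic subunits Psmb5, Psmb6 and Psmb7 are exchanged for Psmb8, Psmb9 and Psmb10, which alters the peptides made for MHC class I. Psme1 and Psme2 form PA28, a cap that opens the core without ATP and is also induced by interferon gamma.

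Start-site sequence is shown for 2 exchangeable or PA28 genes and 2 standard ones, because interferon gamma acts on the first kind and the stress factors Nfe2l1 and Nfe2l2 on the second. The windows are those of RefSeq, build GRCm38.p6, from 250 bases before to 50 after each start site, and 37 of the 43 members matched one. Printed in capitals are matches to a motif. Psmb8 and Psme1 are shown around the interferon-type match in their windows, which in both lies inside an annotated exon of the gene itself, and Psmb5 and Psmb6 with the upstream bases that lie outside annotated exons:
Psmb8, GAS, chr17:34198088-34198116, plus strand: tcctccgctgTTCCCAGAAgatgcccccc
Psme1, ISRE on the minus strand, chr14:55578494-55578522, plus strand: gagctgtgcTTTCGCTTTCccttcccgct
Psmb5, ARE, chr14:54618023-54618245, minus strand: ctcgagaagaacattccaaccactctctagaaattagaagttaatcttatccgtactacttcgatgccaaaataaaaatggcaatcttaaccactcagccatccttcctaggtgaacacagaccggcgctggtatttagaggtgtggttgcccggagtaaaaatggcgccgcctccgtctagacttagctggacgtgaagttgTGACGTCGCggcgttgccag
Psmb6, ARE, chr11:70525107-70525356, plus strand: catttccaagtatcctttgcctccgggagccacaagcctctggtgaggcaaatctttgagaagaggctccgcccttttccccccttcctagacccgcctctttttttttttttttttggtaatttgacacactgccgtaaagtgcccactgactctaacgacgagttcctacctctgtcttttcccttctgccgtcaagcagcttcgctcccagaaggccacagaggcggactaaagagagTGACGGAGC

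The letters searched, on both strands, were GAAA followed by any 2 bases and GAAA again for the interferon-stimulated response element (ISRE), TTCNNNGAA for the gamma-activated site (GAS), and TGACNNNGC for the antioxidant response element (ARE) to which Nfe2l1 and Nfe2l2 bind. Psmd9 held both an ISRE and an ARE, which did not overlap. TTCNNNGAA reads the same on both strands. ISRE letters stood in the windows of 4 of the 37 members (Psmb3, Psmd4, Psmd9 and Psme1), or 10.8%, against 3.44% of all 32851 windows. GAS letters stood in Psmb8 and Psmd2, or 5.41%, against 8.30% of all windows. ARE letters stood in 6 members (Psmb5, Psmb6, Psmc6, Psmd12, Psmd9 and Psme4), or 16.2%, against 12.4%. Psmb9, Psmb10 and Psme2 held none of them. Psmb9 and Tap1, which encodes a chain of the peptide transporter of MHC class I loading, have RefSeq start sites on opposite strands with 225 bases between them. The GENCODE annotation differs there: its Psmb9 gene reaches to chr17:34187764, past the RefSeq start of Tap1 at 34187556. A match describes letters in a window and is no measured binding site.

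Levels are given in CPM, the rescaled count relative to the column total after scaling by trimmed means (TMM), and 1 CPM is about 15.3 rescaled counts. Column totals lay between 15232498 and 15370098, a range that shows rescaling, so the sequencing depth of each library is unknown and no counting interval is given. Libraries are named 1a, 2 and 1b, because the table headers number each group 1, 2 and again 1. Lag3, the targeted gene, stood at 0 to 0.0735 CPM in Lag3-deficient islet Tregs, against 2.57 to 8.18 CPM in Wt islet Tregs, and was near 0 in both NDL groups (0 to 0.233 CPM Lag3-deficient, 0.110 to 0.440 CPM Wt). The islet library Lag3-deficient 2 stood apart, with 927 tested rows at 0 against 399 to 789 in the other 11. It held the lowest value of 10 of the 43 members and the highest value of 7. Wt NDL 1b held the lowest value of 8 members and Lag3-deficient NDL 1a that of 7. The 6 Treg markers summed to at least 1842 CPM in every library and none was at 0 in any whole group. The 12 markers of exocrine pancreas summed to 46.0 to 508 CPM in Lag3-deficient islet Tregs and 166 to 2640 CPM in Wt islet Tregs, against at most 1.01 CPM in Lag3-deficient NDL Tregs and at most 4.41 CPM in Wt NDL Tregs.

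**Figure D1:**
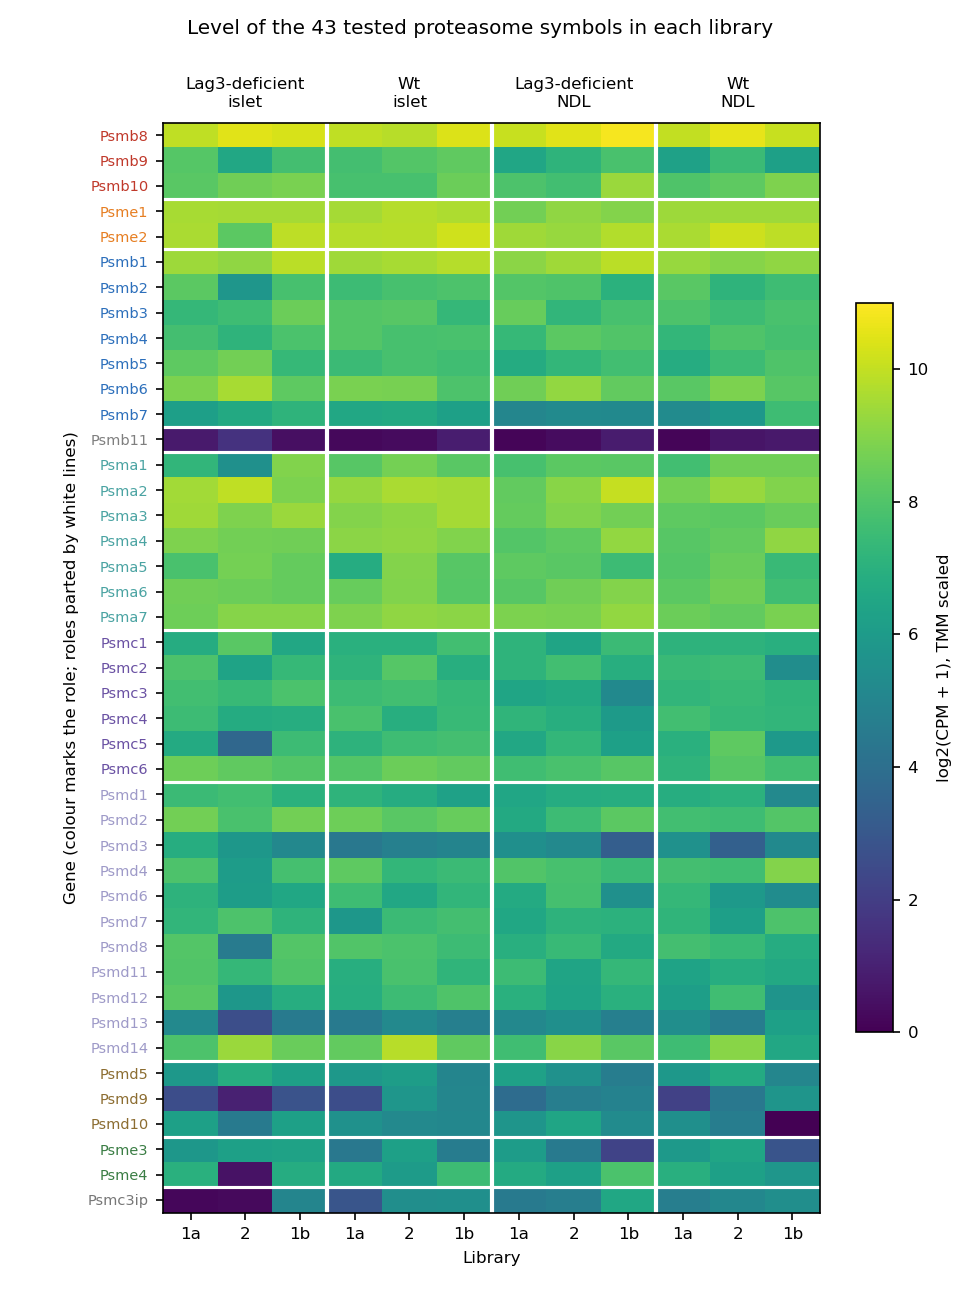
Level of each of the 43 tested symbols, as log2(CPM + 1) in colour, in the 12 libraries; rows are parted by role and columns by group. Psmb8 is bright in every library and Psmb11 dark in every library. Single dark cells mark Psme4 in Lag3-deficient islet 2 and Psmd10 in Wt NDL 1b.

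PA28 and Psmb8 were the most abundant members. Ranked by median CPM per kb of the principal GENCODE transcript over the 12 libraries, Psme2 (892 CPM per kb), Psmb8 (731) and Psme1 (635) led the 43 members, followed by the standard beta subunit Psmb6 (509.8) and the alpha subunit Psma7 (507). Psmb10 ranked at 13 (230.2 CPM per kb) and Psmb9 at 20 (143). Per kb of coding length, which leaves out untranslated ends, Psmb8, Psme2 and Psme1 were again the first 3. Lowest were Psmb11 (0.107 CPM per kb), the 19S assembly chaperones Psmd9 (6.55) and Psmd5 (13.1), and the 19S subunit Psmd13 (15.1). The large activator Psme4, which caps nuclear proteasomes, stood at 15.8 and the nuclear activator Psme3 at 21.3 CPM per kb. Neighbours in this order overlapped widely in range: Psme2 ran from 314 to 1236 and Psmb8 from 553 to 1144 CPM per kb.

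Psmb8 (chr17:34197721-34201454), the exchangeable chymotrypsin-like subunit, had 997.5, 1448 and 1291 CPM in Lag3-deficient islet Tregs 1a, 2 and 1b, against 979, 900.1 and 1358 CPM in Wt islet Tregs 1a, 2 and 1b. In NDL it had 1088, 1466 and 1862 CPM in Lag3-deficient Tregs, against 1024, 1551 and 1089 CPM in Wt Tregs. The groups overlapped in each comparison.

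Psmb9 (chr17:34181987-34187764), which replaces the caspase-like subunit, had 274, 96.8 and 207 CPM in Lag3-deficient islet Tregs, against 209, 261 and 319.5 CPM in Wt islet Tregs. NDL values were 89.6, 141 and 229 CPM in Lag3-deficient Tregs, against 76.5, 181 and 75.4 CPM in Wt Tregs. Every Wt islet library was above every Wt NDL library, while the Lag3-deficient islet and NDL libraries overlapped, with Lag3-deficient islet 2 at the low end.

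Psmb10 (chr8:105935735-105938444), which replaces the trypsin-like subunit, had 293, 395 and 441 CPM in Lag3-deficient islet Tregs, against 224, 224 and 366 CPM in Wt islet Tregs. In NDL it had 240.3, 201 and 643 CPM in Lag3-deficient Tregs, against 249, 310.4 and 469.9 CPM in Wt Tregs. In each of the 4 groups the highest value was that of library 1b. The 1b libraries also held more of the ribosomal RNA gene Rn45s, 1.26 to 1.68% of their signal against 0.149 to 0.571% in the other 8, and the part of that in these values was not tested.

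The PA28 pair differed in steadiness. Psme1 (chr14:55578123-55581529), the alpha chain, had 762, 734 and 735 CPM in Lag3-deficient islet Tregs, against 738, 878 and 789 CPM in Wt islet Tregs, and 398, 581 and 497 CPM in Lag3-deficient NDL Tregs, against 676, 677 and 677 CPM in Wt NDL Tregs. All 6 islet libraries lay above all 6 NDL libraries. Psme2 (chr14:55587441-55591113), the beta chain, had 767, 302 and 952 CPM in Lag3-deficient islet Tregs, against 865, 914 and 1189 CPM in Wt islet Tregs. Its NDL values were 687, 624 and 852 CPM in Lag3-deficient Tregs, against 773, 1130.3 and 964 CPM in Wt Tregs. Its groups overlapped, and the value of 302 CPM in Lag3-deficient islet 2 was the lowest of the 12. Psme2 has a near-identical copy, Psme2b, so the level of Psme2 is uncertain where reads could be split.

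The standard counterparts were lower than their partners per kb, save Psmb6. Psmb5 (chr14:54614119-54618022) had 309, 399 and 166 CPM in Lag3-deficient islet Tregs, against 182, 219 and 198 CPM in Wt islet Tregs, and 108, 155 and 201 CPM in Lag3-deficient NDL Tregs, against 110.4, 185 and 248 CPM in Wt NDL Tregs. Psmb6 (chr11:70525367-70527858) ranged from 308 to 746 CPM in Lag3-deficient islet Tregs and 239 to 442 CPM in Wt islet Tregs, against 328 to 593 CPM in Lag3-deficient NDL Tregs and 282 to 457 CPM in Wt NDL Tregs. Both genes overlapped between all groups.

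Psmb7 (chr2:38588036-38644087) had 72.3, 101 and 143 CPM in Lag3-deficient islet Tregs, against 94.9, 101 and 76.3 CPM in Wt islet Tregs. In NDL it had 32.4, 37.0 and 36.6 CPM in Lag3-deficient Tregs, against 38.03, 55.6 and 190.0 CPM in Wt Tregs. Of the 6 NDL libraries 5 lay below all 6 islet libraries, and Wt NDL 1b was the highest of the 12. The exons of Nek6 overlap 34.9% of the Psmb7 transcript, and strand was not stated to be used in counting. Nek6 reached 29.9 CPM in Lag3-deficient islet 1b and 13.1 CPM in Wt islet 1a and was at most 1.2 CPM in the other 10 libraries. Exons of other genes also overlap the transcripts of Psmd13 (17.2%), Psma4 (9.8%) and Psmd1 (9.7%), and Psmb5, Psmb6, Psmb7 and Psma5 have annotated pseudogenes, so these levels are uncertain where reads could be split or shared.

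**Figure D2:**
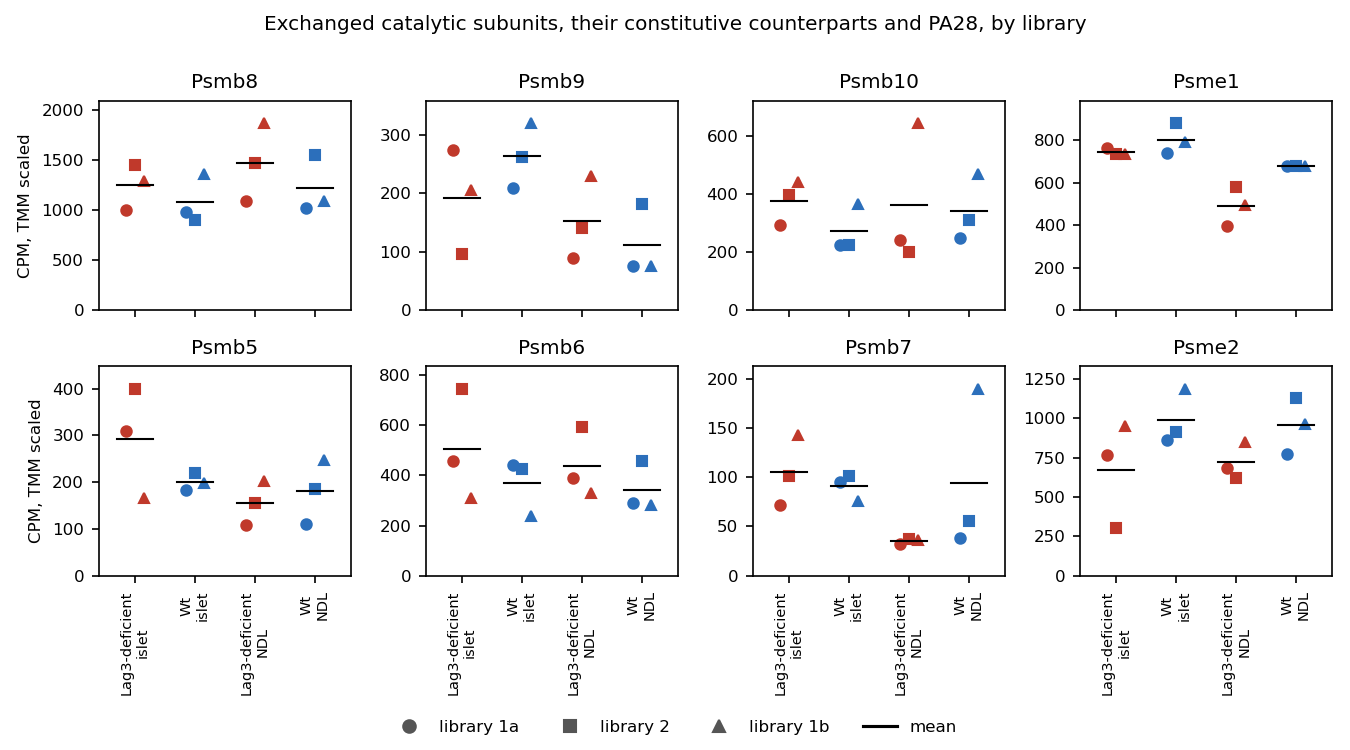
CPM of the exchangeable catalytic subunits, their standard counterparts and the PA28 pair in the 4 groups, with 1 point for each library and a line at the group mean. Psme1 is higher in every islet library than in every NDL library, and the high Psmb7 point in Wt NDL is library 1b.

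The balance within each exchangeable pair was then read as a ratio of CPM per kb, as a description with no test. Psmb8 exceeded Psmb5 in 12 of 12 libraries. The ratio was 1.78, 2.00 and 4.30 in Lag3-deficient islet Tregs 1a, 2 and 1b, against 2.96, 2.27 and 3.79 in Wt islet Tregs. It was 5.55, 5.23 and 5.10 in Lag3-deficient NDL Tregs, against 5.12, 4.64 and 2.43 in Wt NDL Tregs. In 5 of the 6 NDL libraries the ratio was above that of every islet library, and the exception was Wt NDL 1b. The size of this ratio depends on the length used: its median over the 12 libraries was 4.05 per kb of transcript and 7.01 (3.09 to 9.61) per kb of coding length.

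Psmb10 exceeded Psmb7 in 12 of 12 libraries, by a ratio of 3.59, 3.46 and 2.73 in Lag3-deficient islet Tregs, against 2.08, 1.96 and 4.25 in Wt islet Tregs. It was 6.56, 4.81 and 15.5 in Lag3-deficient NDL Tregs, against 5.79, 4.94 and 2.19 in Wt NDL Tregs. Again Wt NDL 1b lay among the islet values while the other 5 NDL libraries lay above them.

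Psmb9 was below Psmb6 in all 12 libraries, with ratios of 0.354, 0.0766 and 0.395 in Lag3-deficient islet Tregs, against 0.279, 0.364 and 0.788 in Wt islet Tregs. They were 0.136, 0.140 and 0.412 in Lag3-deficient NDL Tregs, against 0.157, 0.234 and 0.158 in Wt NDL Tregs. By coding length it exceeded Psmb6 in 1 library. This pair ran the other way, with the median over islet libraries at 0.359 and that over NDL libraries at 0.157, and the tissues overlapped. Psme1 exceeded Psme2 in 1 of 12 libraries, Lag3-deficient islet 2. The 5 genes Psmb8, Psmb9, Psmb10, Psme1 and Psme2 made up 23.8 to 31.3% of the summed CPM of the 43 members in islet libraries and 27.6 to 33.1% in NDL libraries, so the tissues overlapped there too.

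**Figure D3:**
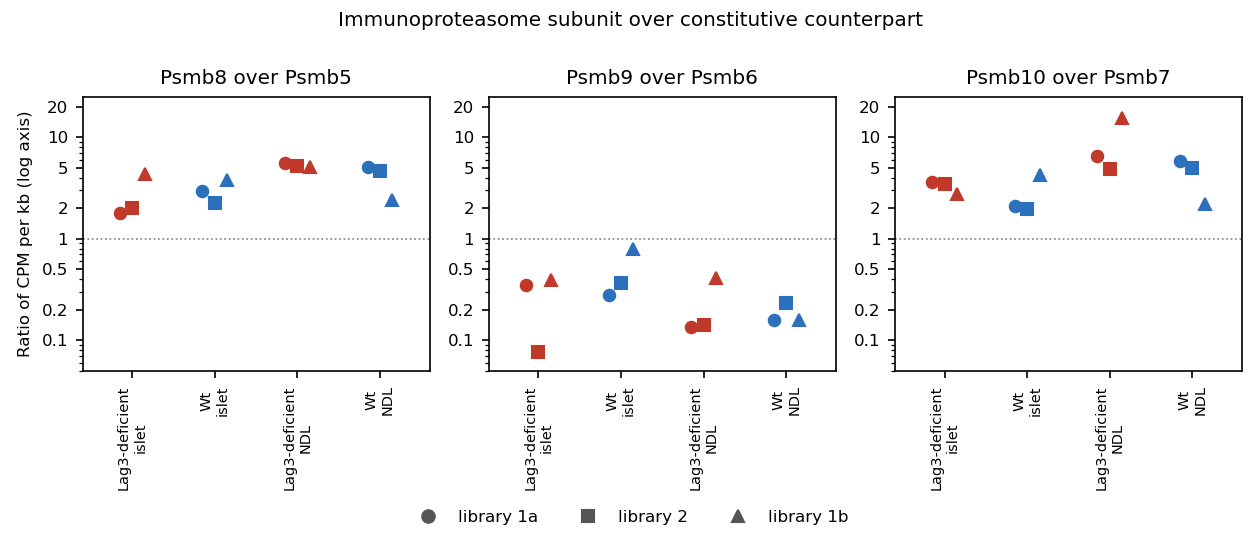
Ratio of CPM per kb of each immunoproteasome subunit over the standard subunit it replaces, on a log axis, with 1 point for each library; the dotted line marks equal levels. Psmb8 over Psmb5 and Psmb10 over Psmb7 are above the line in 12 of 12 libraries, and Wt NDL 1b lies apart from the other NDL libraries in both.

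The first test asked whether islet Tregs differ from NDL Tregs, averaged over genotypes. No member passed the threshold of an adjusted p under 0.05 in limma, against 1.22% of all 10868 rows (112 higher and 21 lower in islet Tregs). With voom weights in limma the count of members was also 0, here and in the other 6 comparisons. At an unadjusted p under 0.05 there were 5 of 43 members, against 11.9% of all rows. The log2 differences leaned upward: 31 of 43 were positive, against 48.4% of all rows, with a median of 0.22 over the members and -0.03 over all rows. Without Wt NDL 1b the median was 0.13, and without scaling it was 0.10, with that of all rows at -0.14. Psme1 was the 1 member whose tissues did not overlap, against 1.38% of all rows in that direction.

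By role, the differences were spread unevenly. The median was -0.04 over Psmb8, Psmb9, Psmb10, Psme1 and Psme2, and it lay between -0.27 and 0.21 over the 24 alternatives. It was 0.24 over the other 38. Positive differences were found in 6 of 7 alpha subunits, 5 of 7 standard beta subunits, 5 of 6 ATPases, 9 of 11 non-ATPase cap subunits and 2 of 3 cap assembly chaperones. They were found in 1 of 3 immunoproteasome subunits and 1 of the 2 PA28 chains. No test compared these sets, and their members share the same libraries.

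Psma3, an alpha ring subunit, had the smallest p of the members. It had 691, 462 and 645 CPM in Lag3-deficient islet Tregs and 496, 554 and 741 CPM in Wt islet Tregs, against 339.5, 481 and 402 CPM in Lag3-deficient NDL Tregs and 311, 300.3 and 356 CPM in Wt NDL Tregs. Only Lag3-deficient NDL 2 reached into the islet range. The log2 difference was 0.71 ± 0.24 (SE; limma adjusted p = 0.217), and over 24 alternatives it lay between 0.47 and 0.82 with adjusted p between 0.127 and 0.411.

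Psmc3, an ATPase of the 19S base, had 203, 169.5 and 233 CPM in Lag3-deficient islet Tregs and 186, 205 and 162 CPM in Wt islet Tregs, against 86.3, 101 and 36.7 CPM in Lag3-deficient NDL Tregs and 152, 170.2 and 144 CPM in Wt NDL Tregs. The low values were those of the Lag3-deficient NDL group, and the difference was 0.89 ± 0.34 (adjusted p = 0.280). Psmd2, a scaffold of the cap that holds ubiquitin receptors, had 400.4, 229 and 404 CPM in Lag3-deficient islet Tregs and 374, 291 and 352 CPM in Wt islet Tregs, against 102, 183 and 296 CPM in Lag3-deficient NDL Tregs and 201, 193 and 263 CPM in Wt NDL Tregs. It differed by 0.77 ± 0.31 (adjusted p = 0.308).

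Of the exchangeable set, Psmb9 differed by 0.82 ± 0.37 (adjusted p = 0.388) and Psme1 by 0.43 ± 0.22 (adjusted p = 0.456). Psmb8 differed by -0.20 ± 0.23, with a 95% interval of -0.67 to 0.27, Psmb10 by -0.04 ± 0.32 (-0.71 to 0.62) and Psme2 by -0.09 ± 0.27 (-0.66 to 0.47). These 3 intervals, and that of Psme1 (-0.03 to 0.88), exclude a 2-fold change in either direction. Such an interval, within 1 log2 unit of 0 on both sides, was found for 16 of 43 members, against 7.37% of all rows. That share, like those for intervals in the other comparisons, is not matched for level. The median SD within groups was 1.24 log2 units over all rows and 0.797 over rows at the level of most members. The most positive members, after the level minimum of 4 on the log2 scale, were Psme3 (0.93 ± 0.74) and Psmb7 (0.89 ± 0.45), and the most negative were Psmc3ip (-1.96 ± 0.92) and Psme4 (-0.88 ± 0.81). The 95% interval was -0.61 to 2.47 for Psme3, -0.05 to 1.83 for Psmb7, -3.87 to -0.05 for Psmc3ip and -2.56 to 0.80 for Psme4. Psme4 changed sign in 2 of the 24 alternatives, and Psme3 stood at 0.36 without Wt NDL 1b and at 0.41 without Lag3-deficient NDL 1b.

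Within Wt, 0 of 43 members passed between islet and NDL Tregs in limma, against 0.221% of all rows (0.212% higher and 0.0092% lower), and 2 were at an unadjusted p under 0.05, against 7.65%. The median was 0.24, against 0.04 over all rows, with 33 of 43 positive, against 51.7%. Psmb9 had the smallest p (1.34 ± 0.53, adjusted p = 0.502), followed by Psma3 (0.87 ± 0.35, adjusted p = 0.508) and Psmd14 (1.09 ± 0.58, adjusted p = 0.703), the deubiquitinase of the cap. Every islet library exceeded every NDL library for 7 members (Psma3, Psma7, Psmb1, Psmb9, Psmd2, Psmd11 and Psme1), against 8.03% of all rows, and 0 members lay the other way, against 6.22%. The 95% interval lay within 1 log2 unit of 0 for 4 of 43, against 1.87%. The most positive were Psmd10 (1.89 ± 1.11) and Psmb9, and the most negative Psmd13 (-0.65 ± 0.89) and Psmc3ip (-0.49 ± 1.29). Psmd10, a chaperone of cap assembly, was listed at 0 in Wt NDL 1b and ranged from 22.1 to 86.6 CPM in the other 11 libraries. Without Wt NDL 1b the islet difference within Wt was 0.18 for Psmd10, 0.50 for Psmd14 and -0.26 for Psmd13. Psmc3ip changed sign to 0.35 without Wt islet 1a.

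Within the Lag3-deficient genotype, 0 of 43 passed between islet and NDL Tregs, against 0.175% of all rows (0.166% higher and 0.0092% lower), and 3 were at an unadjusted p under 0.05, against 9.16%. The median was 0.19, against -0.07 over all rows, with 25 of 43 positive, against 47.6%. It changed sign to -0.02 without Lag3-deficient NDL 1a, to -0.02 without scaling and to -0.06 in the second deposited table. Psmc3 differed by 1.53 ± 0.48 (adjusted p = 0.284) and Psmb7 by 1.498 ± 0.64 (adjusted p = 0.481), and both were higher in every islet than every NDL library, as were Psmd1, Psmd7 and Psme1, against 6.17% of all rows in that direction. Psmd9, another assembly chaperone, was lower without overlap (-2.36 ± 1.27), against 7.21% of all rows. The 95% interval lay within 1 log2 unit of 0 for 5 of 43, against 1.35%. Psme3 differed by 1.85 ± 1.05 and Psme4 by -2.18 ± 1.14, where Lag3-deficient islet 2 held 6 rescaled counts of Psme4, and the other 11 libraries at least 732. Without that library the difference of Psme4 was -0.10, and without Lag3-deficient NDL 1b that of Psme3 was 0.83.

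Psmc3ip, the recombination factor, had the widest difference there, -3.42 ± 1.29 (adjusted p = 0.408). It had 2, 3 and 479 rescaled counts in Lag3-deficient islet 1a, 2 and 1b, against 448, 419 and 1184 in Lag3-deficient NDL 1a, 2 and 1b. In Wt islet Tregs it had 100, 625 and 635 rescaled counts, against 455, 510 and 584 in Wt NDL Tregs. The 2 libraries near 0 lay far below their partner 1b, and 29.8% of its transcript is overlapped by exons of Mlx, which had 66.5, 15.3 and 45.8 CPM in Lag3-deficient islet Tregs, against 51.8, 72.7 and 149 CPM in Lag3-deficient NDL Tregs.

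**Figure D4:**
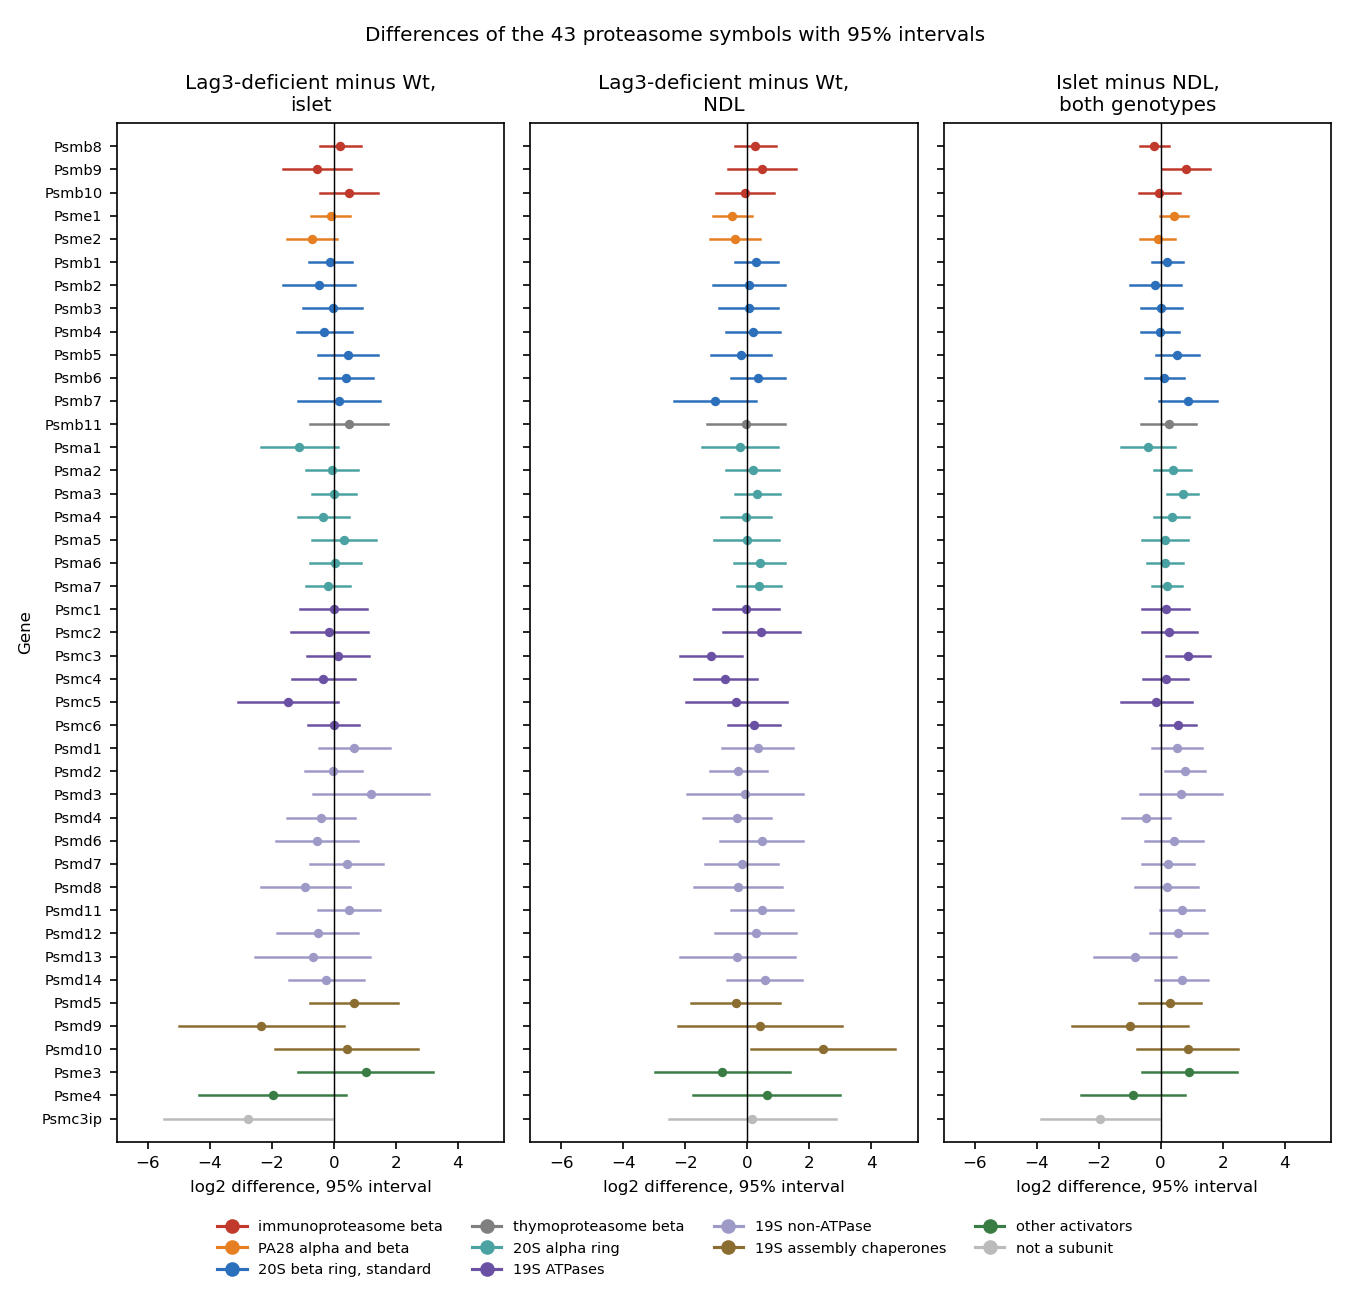
Log2 differences of the 43 symbols with 95% intervals from limma, for Lag3-deficient minus Wt in islets, Lag3-deficient minus Wt in NDL and islet minus NDL over both genotypes; colours mark the roles. In the islet minus NDL panel 31 of 43 symbols lie to the right of 0, and the widest intervals are those of Psmc3ip and other members with a large spread.

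The second test asked what Lag3 deficiency changed. In islet Tregs 0 of 43 members passed in limma, against 0% of all rows, since no row passed. At an unadjusted p under 0.05 there was 1 member, Psmc3ip, against 5.49% of all rows. The median difference was -0.05, against -0.08 over all rows, with 17 of 43 positive, against 46.0%. Psmb8 differed by 0.21 ± 0.32 (-0.45 to 0.88), Psmb9 by -0.55 ± 0.53 (-1.65 to 0.55) and Psmb10 by 0.49 ± 0.45 (-0.45 to 1.44). Psme1 differed by -0.10 ± 0.31 (-0.75 to 0.54) and Psme2 by -0.70 ± 0.38 (-1.50 to 0.11). The value of Psme2 rests on Lag3-deficient islet 2, and without that library it was -0.21, and that of Psmb8 was 0.08. The intervals of Psmb8 and Psme1 lie within 1 log2 unit of 0, as for 10 of 43 members, against 2.36% of all rows.

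Psmc3ip (-2.77 ± 1.29, adjusted p = 0.888), Psmc5 (-1.48 ± 0.78, adjusted p = 0.917) and Psma1 (-1.12 ± 0.59, adjusted p = 0.921) had the smallest p. Psmc5, an ATPase of the base, had 106, 11.8 and 187 CPM in Lag3-deficient islet Tregs, against 137, 191 and 211 CPM in Wt islet Tregs. Psma1, of the alpha ring, had 151, 44.9 and 478 CPM in Lag3-deficient islet Tregs, against 279.9, 414 and 293 CPM in Wt islet Tregs. In both genes the lowest value was that of Lag3-deficient islet 2, and without it the differences were -0.34 for Psmc5 and -0.28 for Psma1. The most positive members were Psmd3 (1.22 ± 0.90), a cap subunit whose genotypes did not overlap, against 4.20% of all rows, and Psme3 (1.03 ± 1.05), and Psme4 differed by -1.97 ± 1.14, which became 0.14 without Lag3-deficient islet 2. Psma4 was lower without overlap, against 5.21% of all rows. All 12 exocrine markers had negative differences in this comparison, 4 at an unadjusted p under 0.05 and 0 past the threshold, and their part in the members' values was not tested.

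In NDL Tregs 0 of 43 members passed in limma, against 0% of all rows, and 2 were at an unadjusted p under 0.05, against 2.89%. The median was 0.05, against -0.01 over all rows, with 22 of 43 positive, against 49.2%. Psmc3 was lower without overlap (-1.17 ± 0.48), as were Psmb7 (-1.05 ± 0.64), Psmc4 and Psme1 (-0.48 ± 0.31), against 3.61% of all rows, and Psma7 was higher without overlap, against 4.32%. Psmd10 differed by 2.45 ± 1.11 and Psme4 by 0.63 ± 1.14. The adjusted p was 1.00 for each member. The value of Psmd10 rests on Wt NDL 1b, where it was listed at 0, against 43.9 and 24.6 CPM in Wt NDL 1a and 2, and without that library the difference was 0.76. That of Psmb7 rests on the same library, the highest of the 12 for this gene, and was -0.36 without it. Without Lag3-deficient NDL 1b the difference of Psmc3 was -0.73. Psmb8 differed by 0.26 ± 0.32, Psmb9 by 0.48 ± 0.53, Psmb10 by -0.07 ± 0.45 and Psme2 by -0.40 ± 0.38. The interval lay within 1 log2 unit of 0 for 3 of 43 members, against 2.32% of all rows.

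Averaged over tissues, 0 of 43 members passed in limma and 0 were at an unadjusted p under 0.05, against 0% and 3.68% of all rows. No member's genotypes were without overlap, against 0.046% of all rows higher and 0.0552% lower. The smallest p was that of Psme2 (-0.55 ± 0.27, adjusted p = 0.999), followed by Psmd10 (1.43 ± 0.78) and Psmc5 (-0.91 ± 0.55). Each moved with 1 library: without Lag3-deficient islet 2 the difference was -0.30 for Psme2 and -0.33 for Psmc5, and without Wt NDL 1b it was 0.595 for Psmd10. Intervals within 1 log2 unit of 0 were found for 20 of 43 members, against 10.9% of all rows. They included Psmb8 (-0.24 to 0.71), Psmb9 (-0.81 to 0.74), Psmb10 (-0.46 to 0.88) and Psme1 (-0.74 to 0.16), and Psme2 reached from -1.12 to 0.02. The interaction, the genotype difference in islets minus that in NDL, passed for 0 of 43 members, against 0% of all rows, with 0 at an unadjusted p under 0.05, against 4.09%. Its smallest p was that of Psmc3 (1.29 ± 0.67, adjusted p = 0.998), whose genotype difference was 0.13 ± 0.48 in islets and -1.17 ± 0.48 in NDL. For Psmb9 it was -1.04 ± 0.75, with a 95% interval of -2.60 to 0.52, and -0.64 without Lag3-deficient islet 2. It was -2.93 ± 1.83 for Psmc3ip, -2.59 ± 1.61 for Psme4, -2.04 ± 1.57 for Psmd10 and 1.84 ± 1.48 for Psme3. The value of Psme4 rests on Lag3-deficient islet 2 and was -0.50 without it, that of Psmd10 includes Wt NDL 1b, where the gene was listed at 0, and that of Psme3 lay between 0.83 and 2.95 over the alternatives. One member had an interval within 1 log2 unit of 0, Psmb8 (-0.99 to 0.90), against 0.156% of all rows. The members' median of -0.23 was -0.01 without Lag3-deficient islet 2.

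Members also differed in how steady they were within a group. The residual SD on the log2 scale had a median of 0.590 over the 43 members and 1.24 over all rows, and among well expressed rows it is lower at higher levels. Among the 3787 rows with a mean log2(CPM + 1) between 5.01 and 9.17 it was 0.797, and over the 33 members in that range 0.643. Psme1 (0.152), Psma7 (0.209) and Psma3 (0.257) were the steadiest members. Psme4 (1.95), Psmc3ip (1.66) and Psmd10 (1.59) varied most. The median was 0.490 over Psmb8, Psmb9, Psmb10, Psme1 and Psme2 and 0.665 over the other 38.

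**Figure D5:**
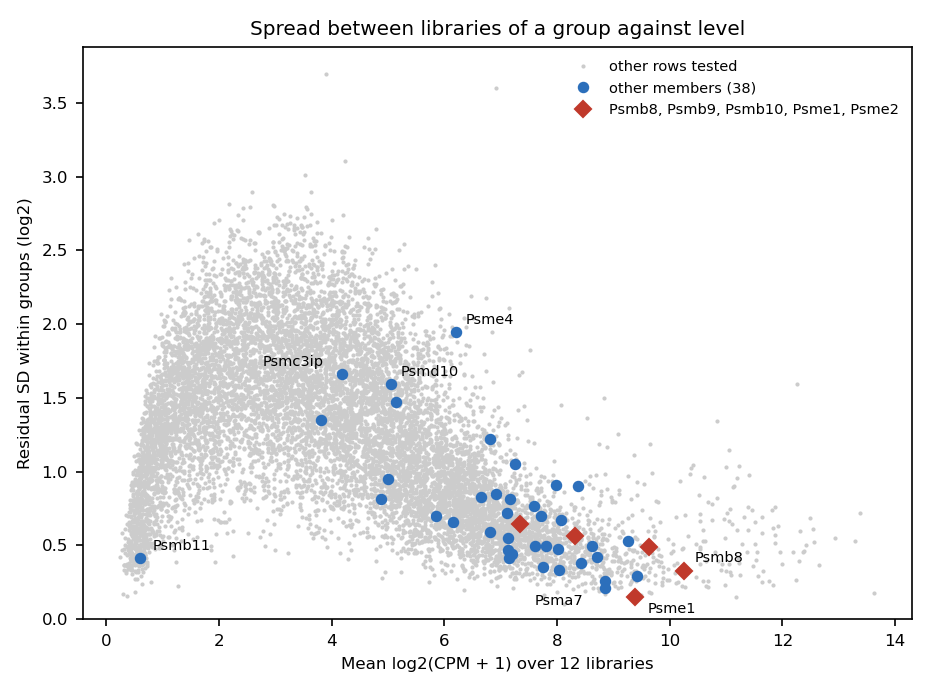
Residual SD within groups against mean log2(CPM + 1) for every tested row, with the 5 immune members as red diamonds and the other 38 as blue points. Most members lie at high level and small spread, and Psme4, Psmc3ip and Psmd10 lie above 1.5.

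Among 25 tested assembly and accessory genes, which serve the proteasome without belonging to it, Zfand5 was higher in islet Tregs over both genotypes, and none was lower at an adjusted p under 0.05 in limma. Zfand5, which binds ubiquitin chains and activates the 26S proteasome, had 255, 299 and 229 CPM in Lag3-deficient islet Tregs and 265, 230.4 and 309 CPM in Wt islet Tregs, against 94.99, 86.8 and 149 CPM in Lag3-deficient NDL Tregs and 74.7, 57.3 and 71.9 CPM in Wt NDL Tregs. Its tissues did not overlap, the difference was 1.62 ± 0.31 (limma adjusted p = 0.0113), and it passed in 24 of 24 alternatives.

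The core assembly factor Pomp differed by 0.55 ± 0.25 (adjusted p = 0.389) and the cap-bound deubiquitinase Uchl5 by 0.83 ± 0.36 (adjusted p = 0.345), neither past the threshold. Between genotypes 0 of the 25 passed in limma, in islets (0 at an unadjusted p under 0.05) or in NDL (1). The smallest p belonged to Akirin2, which brings proteasomes into the nucleus (-1.75 ± 0.91), and Ngly1 (-2.07 ± 1.14) in islets, and to the shuttle factor Rad23b (-2.34 ± 1.05) and the assembly chaperone Psmg2 (1.32 ± 0.73) in NDL. Leaving out 1 library moved 3 of these 4 by over 1.5 times: without Lag3-deficient islet 2 the difference was -1.09 for Akirin2 and -0.50 for Ngly1, and without Wt NDL 1b it was 0.48 for Psmg2. For the interaction they were Rad23b (3.18 ± 1.49) and the ubiquitin receptor Adrm1 (-1.95 ± 1.27).

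Upstream and downstream of the exchange, the interferon gamma list of 14 genes had 11 positive differences between islet and NDL Tregs, against 48.4% of all rows. Past the threshold was 1 gene, Irf8, against 1.22% of all rows. This transcription factor had 77.7, 70.9 and 72.4 CPM in Lag3-deficient islet Tregs and 159.7, 119 and 94.5 CPM in Wt islet Tregs, against 13.2, 43.05 and 22.4 CPM in Lag3-deficient NDL Tregs and 18.96, 33.2 and 2.42 CPM in Wt NDL Tregs. It differed by 2.41 ± 0.59 (adjusted p = 0.0499) and passed in 5 of 24 alternatives, with adjusted p between 0.0328 and 0.152, so that leaving out any library but Wt NDL 2 ended the call. The receptor chain Ifngr1 differed by 1.09 ± 0.32 (adjusted p = 0.132). Irf1, which acts on the Psmb9 promoter, differed by 0.42 ± 0.37. Of 15 genes of MHC class I presentation, which uses the peptides, 14 had positive differences, against 48.4% of all rows. Of these 15 genes 0 passed, against 1.22% of all rows, and their median was 0.41. The chaperones Calr (0.70 ± 0.29, adjusted p = 0.319) and Canx (0.58 ± 0.27, adjusted p = 0.407) had the smallest p. Tap1, whose exons overlap 15.7% of the Psmb9 transcript, differed by 0.27 ± 0.35. Beside these, 7 of 12 exocrine markers were higher in islet Tregs at an adjusted p under 0.05 in limma, against 1.03% of all rows. So were Cd74 of the B cell list and Nkg7 of the CD8 and NK cell list. All 12 exocrine markers had positive differences, each at an unadjusted p under 0.05, against 11.9% of all rows in either direction. The 6 B cell markers, with Pax5 at 0 in every group, summed to 161 to 481 CPM in Lag3-deficient islet Tregs and 304 to 551 CPM in Wt islet Tregs, against 102 to 192 CPM in Lag3-deficient NDL Tregs and 47.4 to 152 CPM in Wt NDL Tregs. The 8 CD8 and NK cell markers summed to 91.2 to 431 CPM and 221 to 369 CPM in those islet groups, against 51.5 to 119 CPM and 19.9 to 31.5 CPM in those NDL groups. Nkg7 was the highest of the 8 in every library, with 263 to 5831 rescaled counts. Cd8b1 ran the other way, with 0 to 35 rescaled counts in islet libraries against 0 to 132 in NDL libraries. So did Cd79b of the B cell list (-1.02), with 14 to 3269 rescaled counts in islet libraries against 287 to 1166 in NDL libraries. Of the 5 B cell markers tested, the other 4 had positive differences. Gzma, Gzmk, Ncr1, Klrb1c and Klrd1 had at most 155 rescaled counts in any library. The 10 endocrine markers reached at most 218 CPM in any islet library and 0.586 CPM in any NDL library, and the 7 myeloid markers in the table at most 108 CPM and 35.1 CPM. Their part in the values of these genes and of the members was not tested.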

How the data were processed

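The authors deposited a signal per gene in 2 tables, rescaled counts of 23361 symbols and a second, further normalized form of 10317 of them. The submitters' processing notes name TopHat2, DESeq2 and mm10, without versions or roles. The library kit and any use of strand in counting are not stated. Because column totals spread by only 0.903%, the values are no raw counts, and limma 3.58.1 with a mean-variance trend (R 4.3.3, statmod 1.5.0) replaced a count model. It was run on log2(CPM + 1), which understates changes of low genes, with TMM factors over tested rows (30% of ratios and 5% of levels trimmed), the 4 groups as terms, 8 residual degrees of freedom and Benjamini-Hochberg adjustment over 10868 rows within each of 7 comparisons. Differences are ± SE. The test was checked on simulated normal log2 values with large planted differences, and its power for smaller ones was not measured. Annotation was GENCODE M21. Named are Psmb5 to Psmb10, Psme1 to Psme4, the filter's neighbours, members with the 3 smallest p and the 2 largest differences each way per comparison, and up to 2 genes of each other list. Members and lists were chosen with earlier results of these data known. Nek6 and Mlx were added for overlapping exons after their values were seen. Some genes of the other lists are not reported here.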

Additional observations from a re-analysis of the deposited data

How the results depend on the processing

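Under 25 alternatives (24 for comparisons averaged over groups), the number of members past the threshold stayed at 0 in all 7 comparisons. These were other scalings (RLE factors, none, TMM over all rows), pseudocounts of 0.5 and 5, no filter or a minimum of 100, voom weights, the second deposited table, a fit of only the groups compared, the replicate block, leaving out the 1b columns, leaving out each library in turn, and leaving out Lag3-deficient islet 2 and Wt NDL 1b together. The all-row scaling and the last were added after seeing the data. With a replicate block, 6 members were at an unadjusted p under 0.05 between islet and NDL Tregs over both genotypes, against 5 without it, and 0 passed. The rows past the threshold numbered 124, against 133. Within the Lag3-deficient genotype the block gave 6 such members, against 3, and 26 rows past the threshold, against 19. Within Wt it gave 3 such members, against 2, and 15 rows past the threshold, against 24. Over the alternatives the rows past the threshold numbered 50 to 175 in that comparison, 9 to 57 (24 as reported) within Wt, 8 to 38 (19 as reported) within the Lag3-deficient genotype and 0 to 5 between genotypes in islets. Same-numbered libraries correlated between -0.0894 and 0.161 in 18 pairs, 2 of them over 0.1. Of the 12 libraries, 9 correlated best with a library of their own number among those of the other groups. These values do not settle whether the numbers pair the samples. The members' median for islet against NDL Tregs over both genotypes lay between 0.10 and 0.31 and remained positive in 24 of 24 alternatives, and that for Wt lay between 0.12 and 0.35. The median over Psmb8, Psmb9, Psmb10, Psme1 and Psme2 took both signs in 6 of 7 comparisons, from -0.27 to 0.21 over both genotypes. Depth is unknown. Of the whole numbers from 1 to 20, 13 were nearly absent in Lag3-deficient islet 2, 8 in Wt NDL 2 and 2 in Lag3-deficient NDL 1b. Low values in these libraries are therefore coarse.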
